A study of Rattus norvegicus with 27 samples.

Results

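The genes described here are the rat zinc finger genes whose symbol is Zfp followed by a number, without Zfp36. They were chosen by name and by measured level: a gene was kept where its brightest probe set averaged at least 5.39 on the log2(intensity + 16) scale over all 27 arrays. Of 213 such genes with a probe set of their own, 175 passed (82.2%, against 70.1% of all 18166 genes) and are called members, and 38 lay under the threshold and are not described further. Just inside the threshold were Zfp94 (5.391), Zfp865 (5.394) and Zfp438 (5.456), and just outside were Zfp248 (5.379), Zfp870 (5.339) and Zfp709 (5.326). Because this mean chose the members, it is a description and not a result.

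Many proteins with such a name carry repeated C2H2 fingers, loops held by a zinc ion that read short stretches of DNA. Which members carry them was not checked here. The name is not a pathway. It covers many KRAB repressors, which recruit the corepressor Trim28 and histone-modifying enzymes to silence transposons and other targets. Activators, RNA-binding proteins and ligases bear it too. KRAB zinc finger genes are known to lie in clusters that arose by tandem duplication. In the RefSeq annotation, 170 members had a protein-coding record, and 70 of these (41.2%) had another gene named as a zinc finger gene directly beside them, against 3.58% of all protein-coding genes. Sequence likeness among paralogs can let a probe set report on more than 1 transcript, and probe sequences were not used here.

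Hippocampal CA1 and CA3 of male Long Evans rats were studied at 8 h of reperfusion after 10 min of normothermic complete global brain ischemia, made by occluding both carotid arteries and lowering the mean arterial pressure to 45 mm Hg by hypovolemia (8R), and in sham-operated non-ischemic controls (NIC). After such an insult the pyramidal neurons of CA1 die with a delay, and those of CA3 mostly survive. From each pool of 5 rats' dissected regions, 20% of the post-mitochondrial supernatant gave total RNA and the rest was spun over a 20% sucrose pad to give polysome RNA. Affymetrix Rat Gene 2.0 arrays were hybridised with 3 arrays for each NIC group and for 8R CA1 polysome RNA, and 4 for the other 8R groups. Each array is 1 pool, so p-values measure the spread between pools. The rats' age is not given in the labels, and whether the CA1 and CA3 pools of a condition came from the same animals is not stated. Because the same mass of RNA (1 ug) was labelled for each array, and the tissue is a mixture, fewer cells of a type and less RNA per cell cannot be told apart.

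The median intensity of an array over all probe sets lay between 25.6 and 27.3 in NIC CA3 polysome RNA and between 30.7 and 34.5 in the other NIC groups, and from 27.1 to 38.1 in 8R. The 8R arrays varied more: the median within-group SD of a member was 0.0957 to 0.121 log2 in the NIC groups and 0.131 to 0.159 in the 8R groups. Counts without the 8R arrays of the pool numbered 4 are given where they moved. Of the dissected regions' own markers, the 5 CA1 pyramidal genes measured summed to 1232 to 1405 in NIC CA1 total RNA and 548 to 668 in NIC CA3 total RNA. The 6 CA3 pyramidal genes summed to 617 to 661 in CA1 and 639 to 653 in CA3, so their sum did not separate the regions. Singly, Kcnq5 was lower in CA1 total RNA (log2 difference -0.63 ± 0.13, limma adjusted p = 0.00418) and 0 of the 6 were higher. In NIC polysome RNA Kcnq5 was lower in CA1 too, while Chgb and Cdh24 were higher there. No marker gene of the lists used was under an intensity of 1 on any array.

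At 8 h after ischemia, the members in CA1 total RNA moved both ways. Of 175 members, 28 rose and 10 fell (limma adjusted p under 0.05 over 12739 genes). That is 16% and 5.71% of members, beside a background of 20.1% of all tested genes higher and 6.15% lower. The median log2 difference was 0.03 for members and 0.04 for all genes. The share of members that rose was below the background and the share that fell close to it.

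Zfp143, an activator that binds promoters and chromatin loop anchors and was first known from small nuclear RNA genes, had the largest rise. Its intensity was 71.7, 56.5 and 60.4 on the 3 NIC CA1 total arrays and 145, 119, 117 and 146 on the 4 8R arrays. Every 8R array lay above every NIC array, and the difference was 1.87-fold (0.90 ± 0.11 as log2 difference ± SE, with 4 and 3 arrays, limma adjusted p = 3.2e-07). Fold changes throughout are on the log2(intensity + 16) scale, where the added constant makes the change of a dim gene look smaller than it is. Most genes named here and below were picked for large called differences in these same arrays. That their groups do not overlap therefore describes the values and is not further support. The share of all genes without overlap is not given here.

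Zfp24, whose protein is needed for myelination of the central nervous system, read 71.7, 50.6 and 56.8 in NIC and 134, 107, 117 and 120 in 8R. The groups did not overlap, and the rise was 1.8-fold (0.85 ± 0.11, adjusted p = 1.93e-06). Zfp597 stood at 40.6, 33.8 and 37.8 in NIC and at 88.3, 71.6, 81.4 and 74.1 in 8R. All of its 8R arrays were again above all NIC arrays (0.83 ± 0.12, adjusted p = 1.08e-05).

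The next largest rises were of the same kind. Zfp35 read 69.7, 63.8 and 63.4 in NIC and 133, 111, 117 and 128 in 8R (0.76 ± 0.12). Zfp330, a nucleolar protein, read 52.5, 45 and 57.2 in NIC and 125, 99.2, 80.2 and 89.9 in 8R (0.75 ± 0.12). Zfp189, a KRAB gene studied as a target of CREB in prefrontal cortex, read 103, 97.6 and 114 in NIC and 198, 165, 174 and 188 in 8R (0.71 ± 0.12, adjusted p = 6.81e-05). Arrays of the compared groups did not overlap for any of these 3 genes. The other 22 risers had log2 differences from 0.31 to 0.67.

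Zfp580 had the largest fall. It read 302, 276 and 304 on the NIC CA1 total arrays and 132, 136, 153 and 189 on the 8R arrays, with no overlap (1.85-fold lower, log2 difference -0.89 ± 0.16, adjusted p = 9.05e-05). Zfp358 fell from 108, 111 and 106 to 52.5, 46.7, 68.3 and 76.9 (-0.71 ± 0.13), and Zfp575 from 78, 93 and 91.9 to 44.7, 40.7, 52.7 and 55.8 (-0.69 ± 0.11). For both, every 8R array was below every NIC array.

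Zfp683, known as Hobit in tissue-resident lymphocytes, read 73.5, 67.7 and 58.6 in NIC and 21.2, 25.1, 35.7 and 67 in 8R. It was called lower (-0.70 ± 0.20, adjusted p = 0.00857), but the groups overlapped, because the 8R array of pool 4 reached 67 while the others stayed at or below 35.7. Without 8R replicate 1 the call was lost (adjusted p = 0.0512). Zfp42, the pluripotency marker Rex1, read 57.3, 67.1 and 60.9 in NIC and 33.8, 37, 39.3 and 47.7 in 8R (-0.49 ± 0.13), and Zfp341, an activator of the STAT3 gene, 85.6, 86.8 and 98.9 in NIC and 64.4, 63.1, 62.9 and 69.9 in 8R (-0.39 ± 0.11). Neither of these overlapped between groups, and the call of Zfp341 was lost without NIC CA1 total replicate 3 (adjusted p = 0.0571).

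Quantile normalization between arrays turned the split of 28 higher and 10 lower members into 18 and 24 (background 16% and 13.5%), although none of the genes named for this comparison changed sign. The total of 38 fell to 25 without NIC CA1 total replicate 2 and to 25 without 8R CA1 total replicate 1. In the same arrays astrocyte markers (8 of 8 genes measured, 5 called higher) summed to 4429 to 4590 in NIC and 5655 to 6439 in 8R. Microglial markers (8 measured, 3 of 7 tested called higher) summed to 349 to 395 and 448 to 515. CA1 pyramidal markers summed to 1232 to 1405 in NIC and to 962, 978, 1618 and 971 on 8R replicates 1 to 4. Of the 5 tested, 2 were called lower (Mpped1 and Pou3f1), with a median log2 difference of -0.40. The part of these marker sets in the members' changes was not tested.

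In CA3 total RNA 17 members rose and 4 fell (9.71% and 2.29%), beside a background of 14.2% higher and 1.33% lower. The median was 0.09 for members and 0.08 for all genes. Of the 17 that rose in CA3, 16 also rose in CA1 (94.1% of the CA3 list and 57.1% of the CA1 list). Over all genes, 1474 rose in both, which is 81.6% of the 1806 that rose in CA3 and 57.5% of the 2563 that rose in CA1. All 4 members that fell in CA3 also fell in CA1 (100% and 40%, beside 72.4% and 15.7% over all genes). The one CA3 riser outside the CA1 list was Zfp800 (0.35 ± 0.11). The 28 CA1 risers all had a difference above 0 in CA3, from 0.02 to 0.74 with a median of 0.34, in arrays that did not choose them. So did 99.3% of all genes that rose in CA1, with a median of 0.37.

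The same 6 genes had the largest rises in CA3. Zfp24 read 57.2, 47.1 and 51.3 in NIC and 107, 103, 87.1 and 93 in 8R (1.67-fold, log2 difference 0.74 ± 0.11, n = 4 and 3, limma adjusted p = 4.95e-05). Zfp597 read 40.2, 25.1 and 48.9 in NIC and 68.3, 72.9, 68.8 and 57.6 in 8R (0.64 ± 0.12). Zfp189 read 98.6, 94.4 and 83.5 in NIC and 147, 140, 167 and 128 in 8R (0.57 ± 0.12). Every 8R array exceeded every NIC array for these 3 genes.

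Zfp330 rose by 0.55 ± 0.12 and Zfp35 by 0.52 ± 0.12. Zfp143 read 66.4, 50.7 and 62.8 in NIC CA3 and 99.9, 84.7, 90.7 and 87.9 in 8R CA3 (0.50 ± 0.11, adjusted p = 0.00192). Groups of these genes did not overlap either. Among the remaining risers were Zfp593, which acts in assembly of the large ribosomal subunit (0.34 ± 0.11 in CA3 and 0.31 ± 0.11 in CA1), and Zfp410 (0.34 ± 0.09 and 0.53 ± 0.09).

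Zfp580 fell in CA3 as well, from 288, 236 and 257 to 116, 145, 163 and 175 (-0.75 ± 0.16, adjusted p = 0.00165), with no overlap. Zfp575 read 93.3, 71.7 and 85 in NIC and 61.3, 59.6, 57.4 and 61.2 in 8R (-0.38 ± 0.11), Zfp358 97.4, 93.6 and 96.9 in NIC and 60.3, 62.7, 74.6 and 85 in 8R (-0.38 ± 0.13), and Zfp653 69.9, 69 and 59.5 in NIC and 50, 44.5, 46.3 and 61.4 in 8R (-0.31 ± 0.10). The groups overlapped only for Zfp653, through the array of pool 4 at 61.4. The call for Zfp575 was lost without NIC CA3 total replicate 1 or 3, that for Zfp358 without any 1 NIC array or 8R replicate 1, 2 or 3, and that for Zfp653 without NIC replicate 1 or 2 or 8R replicate 1, 2 or 3. Their highest adjusted p over all alternatives was 0.0945, 0.135 and 0.158. The call for Zfp580 was kept in all 16 alternatives.

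The total of 21 called members in CA3 total RNA was 45 without the 8R arrays of pool 4 (37 higher and 8 lower, background 29.1% and 5.08%), and it fell to 13 without NIC CA3 total replicate 2, 13 without 8R CA3 total replicate 1 and 12 without 8R CA3 total replicate 3. Under quantile normalization it was 9 higher and 5 lower (background 8.36% and 4.26%). Beside these changes, astrocyte markers summed to 4078 to 4181 in NIC CA3 total RNA and 4482 to 5657 in 8R, with 2 of 8 called higher. Oligodendrocyte markers summed to 1545 to 1868 in NIC and 1997 to 2250 in 8R (2 of 7 tested called higher), microglial markers to 318 to 369 and 432 to 456 (2 of 7) and interneuron markers to 1270 to 1368 and 1380 to 1521 (2 of 5). The region's own CA3 pyramidal markers rose as well, from 639 to 653 in NIC to 773 to 854 in 8R, with 1 of 6 called higher (Chgb). No 8R array overlapped a NIC array in any of these sums, while the CA1 pyramidal and endothelial sums overlapped. The part of the marker sets in the members' changes was not tested.

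**Figure D1:**
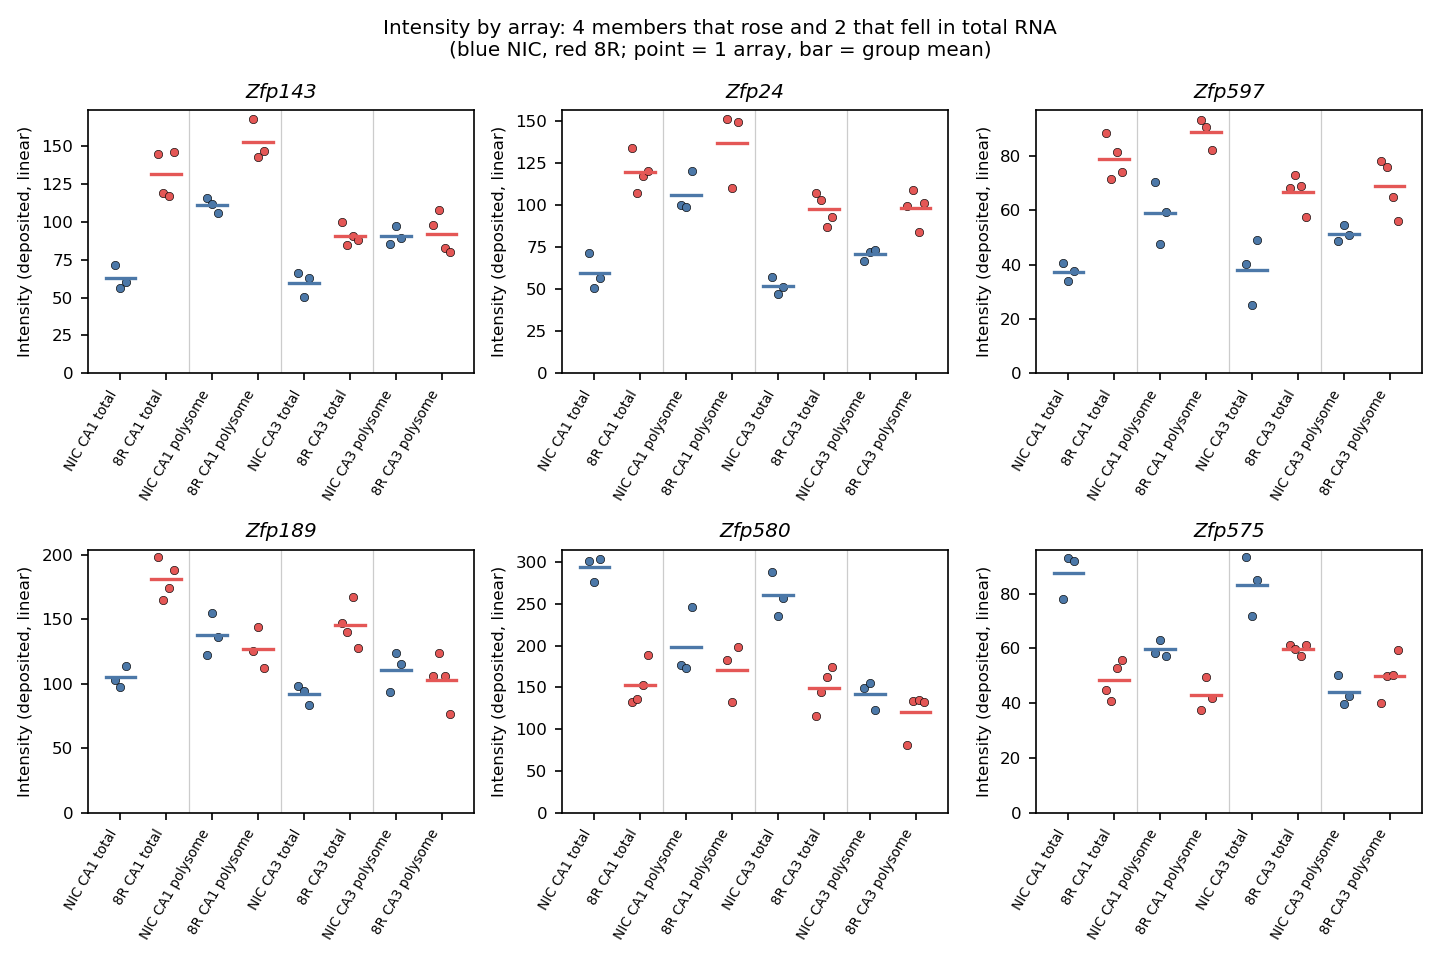
Deposited intensity of 6 members on each of the 27 arrays (vertical axis, linear, starting at 0), by group (horizontal axis). Blue points are NIC arrays, red points 8R arrays and bars group means. In CA1 and in CA3 total RNA every red point of Zfp143, Zfp24, Zfp597 and Zfp189 lies above every blue one, and those of Zfp580 and Zfp575 lie below.

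Promoters are shown for 5 of the members that moved the same way in both regions, so that the sequence before their start sites can be read beside their values: 3 that rose (Zfp143, Zfp597 and Zfp655) and 2 that fell (Zfp575 and Zfp580). Each is the 250 bases before the annotated start in RefSeq, build GRCr8, 5′ to 3′ on the gene's strand. They are Zfp143 at chr1:173543634-173543883 on the plus strand, Zfp597 at chr10:12159283-12159532 on the plus strand, Zfp655 at chr12:14488290-14488539 on the minus strand, Zfp575 at chr1:89305035-89305284 on the minus strand and Zfp580 at chr1:77818128-77818377 on the minus strand. Capitals mark matches to any of 10 motifs searched on both strands.
Zfp143: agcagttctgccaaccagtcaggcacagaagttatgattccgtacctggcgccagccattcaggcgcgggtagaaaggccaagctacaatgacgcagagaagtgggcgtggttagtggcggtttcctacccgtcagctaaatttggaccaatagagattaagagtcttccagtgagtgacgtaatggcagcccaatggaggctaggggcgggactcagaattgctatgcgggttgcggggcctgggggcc
Zfp597: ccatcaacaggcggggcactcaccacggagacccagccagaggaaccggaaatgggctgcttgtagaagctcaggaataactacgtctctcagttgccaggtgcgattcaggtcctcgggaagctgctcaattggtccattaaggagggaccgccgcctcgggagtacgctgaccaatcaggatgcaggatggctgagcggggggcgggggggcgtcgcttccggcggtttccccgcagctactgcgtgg
Zfp655: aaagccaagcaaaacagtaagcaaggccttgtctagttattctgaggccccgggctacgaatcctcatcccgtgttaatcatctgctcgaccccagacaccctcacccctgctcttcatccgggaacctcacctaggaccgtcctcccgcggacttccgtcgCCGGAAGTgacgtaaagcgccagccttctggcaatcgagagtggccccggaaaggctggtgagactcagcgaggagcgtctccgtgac
Zfp575: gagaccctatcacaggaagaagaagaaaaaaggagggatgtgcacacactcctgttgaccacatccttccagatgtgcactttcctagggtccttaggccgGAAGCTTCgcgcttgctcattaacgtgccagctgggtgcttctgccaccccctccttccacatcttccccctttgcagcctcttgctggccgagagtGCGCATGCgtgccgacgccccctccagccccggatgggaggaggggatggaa
Zfp580: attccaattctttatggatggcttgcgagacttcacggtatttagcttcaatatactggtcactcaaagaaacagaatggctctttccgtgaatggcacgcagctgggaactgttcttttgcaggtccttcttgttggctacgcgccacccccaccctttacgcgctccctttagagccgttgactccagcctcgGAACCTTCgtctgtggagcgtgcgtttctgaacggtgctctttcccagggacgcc

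Zfp655 holds an ETS site (CCGGAAGT), Zfp575 a heat shock element core (GAANNTTC) and an NRF1 core site (GCGCATGC), and Zfp580 a heat shock element core. Zfp143 and Zfp597 hold none of the 10 motifs in these windows. Promoters of this length were at hand for 141 of the 175 members and 27457 genes in all. Members had a median of 14 CpG dinucleotides and 57.2% GC in the window, against 6 and 52% over all promoters. The set of all promoters was not limited to genes on the array or above the intensity threshold, as members are. It is therefore an unlike set, here and for the motif shares that follow.

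The cAMP response element (TGACGTCA) was in 2.84% of members' promoters and 1.7% of all. The heat shock element core was in 9.22% and 7.02%, the E box (CACGTG) in 7.8% and 5.79%, the antioxidant response element core (TGACNNNGC, which begins with the same letters as the cAMP response element) in 7.8% and 10.2%, and the amino acid response element core (TGATGNAA) in 0.709% and 3.27%. The AP-1 site (TGAGTCA) was in 3.55% and 3.98%, the Egr site (GCGTGGGCG) in 0.709% and 0.514%, the NRF1 core site in 5.67% and 2.38%, the ETS site in 3.55% and 3.29%, and the core of the site bound by Zfp143 itself (ACTACAA) in 8.51% and 2.97%. Among the 14 risers of both regions with a promoter, 1 held the last of these (7.14%), 2 an ETS site (14.3%) and 1 a cAMP response element (7.14%, in Zfp593). Of the 4 fallers of both regions, 2 held a heat shock element core and 2 an NRF1 core site. A match is only a description of the letters.

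The change after ischemia was then compared between regions. For total RNA, no member's change differed between CA1 and CA3 (background 0.0235% higher and 0% lower in limma), and 7 members (4%) had an unadjusted p under 0.05, beside 5.22% of all genes. The lowest p was that of Zfp143, which rose by 0.41 ± 0.15 log2 more in CA1 (95% interval 0.10 to 0.72, adjusted p = 0.845). For polysome RNA 0 members were called as well (background 0.00785% higher and 0.00785% lower), with 11 at an unadjusted p under 0.05 (6.29%, beside 5.55%). The intervals are wide, so these tests do not show that the regions acted alike.

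In CA1 polysome RNA fewer members were called: 5 rose and 7 fell (2.86% and 4%), beside a background of 4.86% higher and 3.45% lower. The medians were -0.03 for members and 0.01 for all genes. Zfp597, Zfp143, Zfp532 and Zfp706 rose in polysome RNA and in total RNA. These 4 genes are 80% of the polysome risers and 14.3% of the total RNA risers, beside 76.1% and 18.4% over all genes. Zfp575 was the member that fell in both. It is 14.3% of the polysome fallers and 10% of the total RNA fallers, beside 34.6% and 19.4% over all genes.

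Zfp597 read 70.3, 47.6 and 59.4 on the NIC CA1 polysome arrays and 93.4, 90.8 and 82.1 on the 8R arrays (1.4-fold, log2 difference 0.49 ± 0.13, n = 3 and 3, limma adjusted p = 0.0197). Zfp143 read 116, 112 and 106 in NIC and 168, 143 and 147 in 8R (0.40 ± 0.11, adjusted p = 0.0249). Both were without overlap. Zfp532, which with Zfp592 and Zfp687 forms a complex with the chromatin reader Zmynd8, read 111, 109 and 115 in NIC and 164, 127 and 182 in 8R (0.43 ± 0.12).

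Zfp513 read 80.6, 99.2 and 89.2 in NIC and 116, 111 and 139 in 8R (0.39 ± 0.11), and Zfp706, a repressor of Klf4 in embryonic stem cells, 269, 251 and 286 in NIC and 379, 341 and 341 in 8R (0.38 ± 0.10). All 8R arrays of both lay above all NIC arrays.

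Of the 7 members that fell in CA1 polysome RNA, 6 were not called in CA1 total RNA. Among these 6, only Zfp715 was called in the direct test of the polysome against the total change, given below. The falls of the others are therefore not shown to differ between the fractions. Zfp972 read 297, 286 and 297 in NIC and 154, 228 and 139 in 8R (1.66-fold lower, log2 difference -0.73 ± 0.17, adjusted p = 0.00679), while its total RNA arrays read 366, 318 and 365 in NIC and 285, 285, 327 and 253 in 8R (-0.27 ± 0.16, adjusted p = 0.22). Zfp715 read 65.1, 70.8 and 76.6 in NIC polysome RNA and 41.9, 52.5 and 44.7 in 8R (-0.48 ± 0.12). Zfp365, a binding partner of the neuronal scaffold protein Disc1, read 319, 366 and 352 in NIC and 227, 293 and 219 in 8R (-0.47 ± 0.15, adjusted p = 0.0492). These 3 showed no overlap between groups.

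Zfp318, known for the choice between IgM and IgD transcripts in B cells, read 171, 156 and 162 in NIC and 113, 136 and 95.7 in 8R (-0.46 ± 0.12). Zfp267 read 112, 112 and 150 in NIC and 74.6, 94.7 and 88.4 in 8R (-0.46 ± 0.13), and Zfp61 61.8, 71.1 and 55 in NIC and 42.9, 47.5 and 36.3 in 8R (-0.43 ± 0.12). Zfp575 completed the list, from 58.4, 63.1 and 57.4 to 37.3, 49.5 and 41.8 (-0.37 ± 0.11). In all 4 every 8R array lay below every NIC array. Called members are not those with the largest differences alone: Zfp40 (-0.99 ± 0.39, adjusted p = 0.116), Zfp483 (-0.89 ± 0.32, adjusted p = 0.0835) and Zfp445 (-0.53 ± 0.19, adjusted p = 0.0829) also had every 8R array below every NIC array and did not pass the test. These 3 were picked out after their values were seen.

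The CA1 polysome counts rest on few arrays. The 12 calls were 4, 5 and 5 without NIC CA1 polysome replicate 1, 2 or 3, 1 without 8R CA1 polysome replicate 1, 25 without replicate 2 and 1 without replicate 3, and they were 2 when only these groups were fitted. The 11 genes retested, which are the called ones other than Zfp575, kept their direction in every alternative. Zfp972 lost its call without 8R replicate 3 and in no other alternative, and the other 10 lost theirs in 3 to 8 of 15. CA1 pyramidal marker sums were 1663 to 2080 in NIC CA1 polysome RNA and 1326, 2187 and 1390 on the 8R arrays 1, 2 and 3, and the array with the high sum was the one whose removal raised the count. Microglial markers summed to 378 to 404 in NIC and 493 to 659 in 8R (3 of 7 tested called higher), astrocyte markers to 5526 to 5631 and 6211 to 7476 (2 of 8), and interneuron markers to 1617 to 1731 and 1859 to 2109 (0 of 5). CA3 pyramidal markers went the other way, from 849 to 922 in NIC to 693 to 839 in 8R, with 1 of 6 called lower (Kcnq5). Whether any of these sums bears on the calls was not tested.

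**Figure D2:**
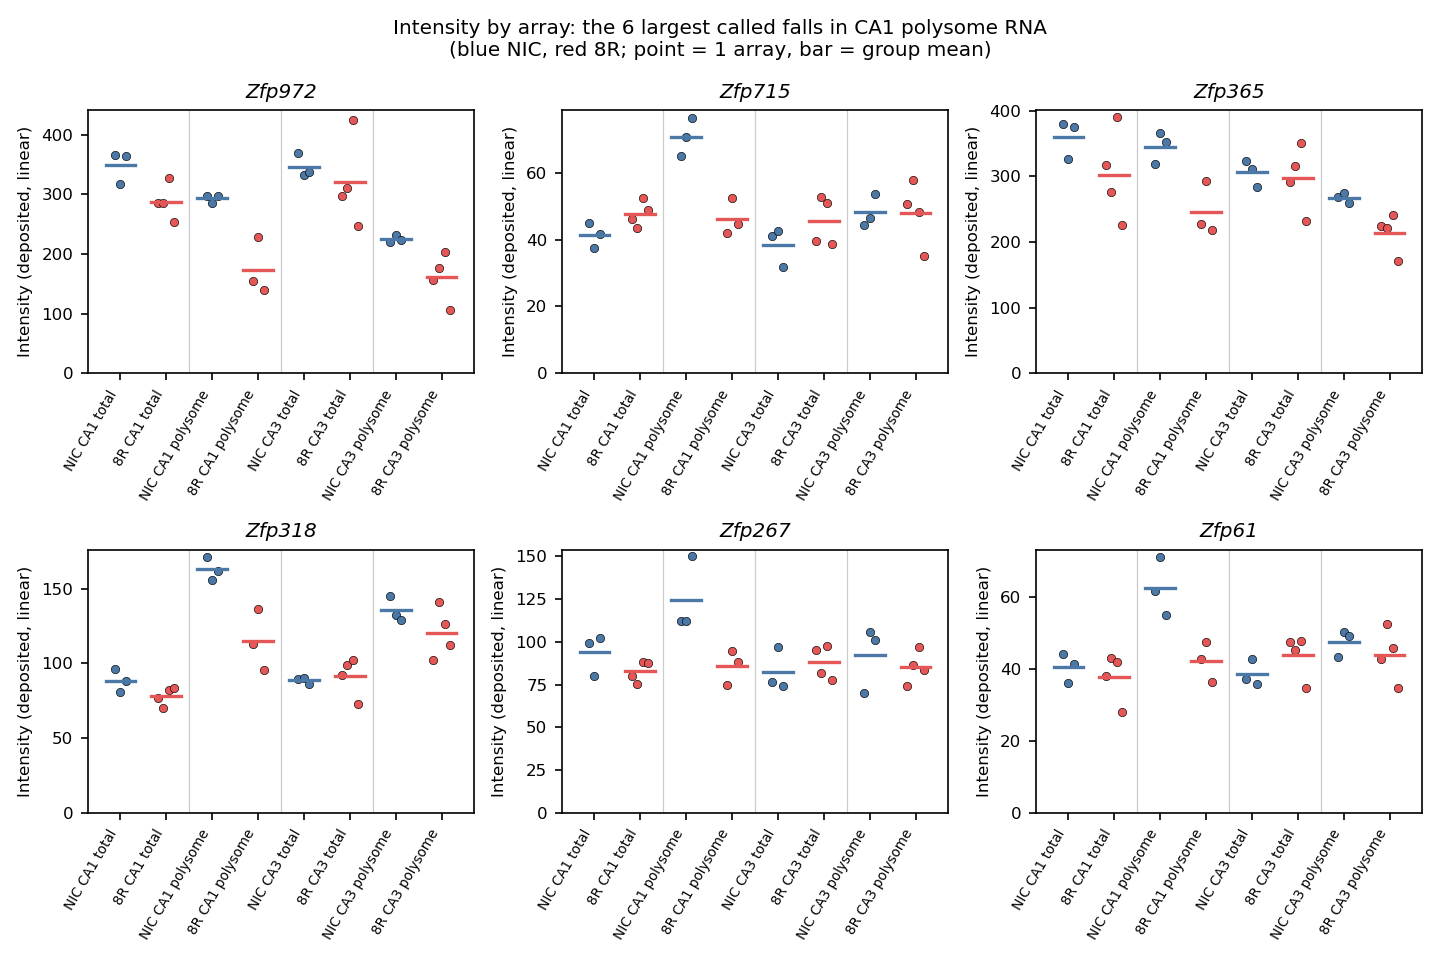
Deposited intensity of the 6 members with the largest called falls in CA1 polysome RNA (vertical axis, linear, starting at 0) on each array, by group (horizontal axis). Blue points are NIC arrays, red points 8R arrays and bars group means. In CA1 polysome RNA every red point lies below every blue one in all 6 panels.

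In CA3 polysome RNA 1 member rose and 0 fell (0.571% and 0%), beside a background of 2.38% higher and 0.275% lower, and 31 members (17.7%) had an unadjusted p under 0.05, beside 18.7% of all genes. The riser was Zfp217, known as an oncogene product of the CoREST complex, which read 31, 32.4 and 19.9 in NIC and 37.7, 51.9, 44.9 and 40.3 in 8R (1.37-fold, log2 difference 0.45 ± 0.12, n = 4 and 3, limma adjusted p = 0.0427). Its groups did not overlap, but the call was lost in 9 of 16 alternatives, among them without any 1 of the 3 NIC arrays, without 8R replicate 2, 3 or 4, and under quantile normalization, where 0 members rose and 1 fell. The count was 4 without 8R CA3 polysome replicate 3 and 0 without NIC CA3 polysome replicate 1, 2 or 3 or 8R CA3 polysome replicate 2 or 4. Zfp24 read 66.6, 72.2 and 73.2 in NIC and 99.1, 109, 83.9 and 101 in 8R, just short of the threshold (0.40 ± 0.11, adjusted p = 0.0528). In these arrays astrocyte markers summed to 4457 to 4647 in NIC and 4996 to 5544 in 8R (1 of 8 called higher), microglial markers to 327 to 338 and 401 to 530 (2 of 7) and interneuron markers to 1475 to 1514 and 1611 to 1816 (0 of 5), and their part was not tested.

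The 28 members that rose in CA1 total RNA had a median log2 difference of 0.47 there, which chose them, of 0.34 in CA3 total RNA, of 0.16 in CA1 polysome RNA (from -0.32 to 0.49, above 0 for 21) and of 0.09 in CA3 polysome RNA (from -0.24 to 0.40, above 0 for 20). Those 3 other comparisons share no arrays with the one that chose the genes, though total and polysome RNA of CA1 share pools. All 2563 genes that rose there had medians of 0.48, 0.37, 0.14 (above 0 for 74.8%) and 0.09 (73.2%) in the same order. The 10 members that fell had medians of -0.44, -0.29, -0.08 and 0, beside -0.43, -0.20, -0.18 and -0.05 for the 783 genes that fell. In all, 47 members (26.9%) were called in at least 1 of the 4 comparisons of 8R with NIC, beside 33.6% of all genes. No member was called in all 4, beside 117 of the 12739 genes.

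**Figure D3:**
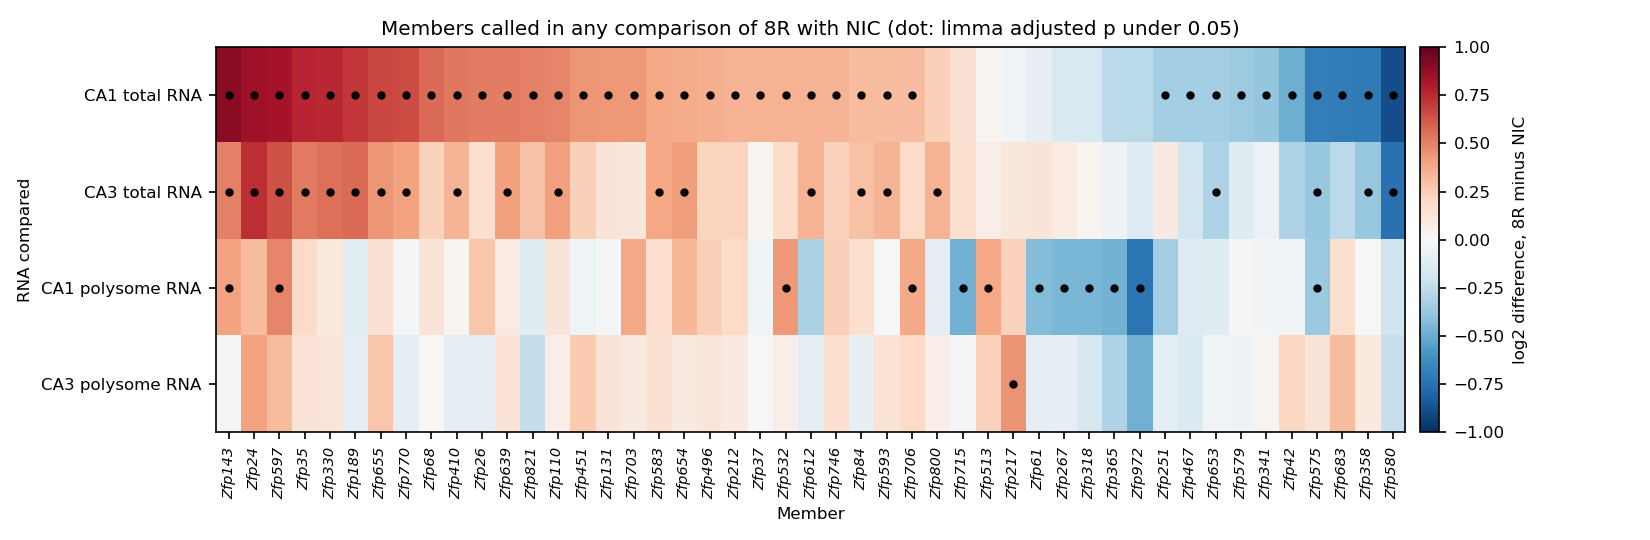
Log2 difference between 8R and NIC (colour, from -1 in blue to 1 in red) of the 47 members called in at least 1 of the 4 comparisons (columns), for each RNA compared (rows). Dots mark limma adjusted p under 0.05. The 28 members that rose in CA1 total RNA are all above 0 in CA3 total RNA, and the dots of CA1 polysome RNA fall on 5 risers and 7 fallers.

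The difference between the polysome and the total RNA change was tested directly, with the polysome change minus the total change of each gene. In CA1 1 member was higher and 7 were lower (0.571% and 4%), beside a background of 0.408% higher and 3.41% lower. The 7 were Zfp189 (-0.81 ± 0.18, limma adjusted p = 0.0155), Zfp612 (-0.67 ± 0.17), Zfp770 (-0.67 ± 0.18), Zfp330 (-0.66 ± 0.18), Zfp715 (-0.63 ± 0.17), Zfp821 (-0.62 ± 0.17) and Zfp410 (-0.50 ± 0.14), and the one that was higher was Zfp358 (0.71 ± 0.18, adjusted p = 0.0293).

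Against its rise in total RNA, the CA1 polysome arrays of Zfp189 read 122, 155 and 136 in NIC and 125, 144 and 112 in 8R (-0.11 ± 0.13). Zfp330 polysome arrays read 108, 99.3 and 116 in NIC and 138, 113 and 100 in 8R (0.10 ± 0.13). In both genes the polysome arrays of NIC and 8R overlapped while the total RNA arrays did not.

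Zfp410, whose protein is a dedicated activator of the remodeller gene Chd4, read 141, 144 and 141 in NIC total RNA and 219, 223, 203 and 206 in 8R, but 118, 125 and 152 in NIC polysome RNA and 145, 141 and 118 in 8R. Chd4 itself rose in total RNA of CA1 (0.54 ± 0.10) and CA3 (0.67 ± 0.10) and gave -0.02 ± 0.10 in CA1 polysome RNA (limma adjusted p = 0.954). Whether the changes of Chd4 and Zfp410 are linked was not tested. Zfp358 ran the other way from Zfp410: its CA1 polysome arrays read 74.2, 75.4 and 81.2 in NIC and 80.5, 64.4 and 86.5 in 8R beside the fall in total RNA.

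Total and polysome RNA with the same pool number come from the same pool of rats. With each pool taken as a fixed block, the CA1 count of 8 became 38 (5 higher and 33 lower, background 3.7% and 20.9%) and all 8 genes kept their call. In CA3 no member was called (background 0.0549% higher and 0.110% lower), with 33 members at an unadjusted p under 0.05 (18.9%, beside 20.6% of all genes), and with the block 9 were higher and 21 lower (background 6.07% and 16.1%). Zfp189 had one of the largest CA3 differences without the block (-0.68 ± 0.17, adjusted p = 0.068).

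Without the block the 8 CA1 calls were 2, 4 and 1 without NIC CA1 polysome replicate 1, 2 or 3, 0 and 5 without NIC CA1 total replicate 2 or 3, 0 without 8R CA1 polysome replicate 3 and 1 without 8R CA1 total replicate 1. The single genes lost their call in 2 (Zfp189) to 14 (Zfp821) of 23 alternatives. Quantile normalization gave 2 higher and 5 lower members in CA1 (background 1.3% and 2.49%). In CA3 2 members were called without 8R CA3 polysome replicate 2, 9 without 8R CA3 total replicate 4, and 11 without all 8R arrays of pool 4.

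Among the sham controls, polysome RNA was set against total RNA. In NIC CA1 77 members were higher in polysome RNA and 4 lower (44% and 2.29%), beside a background of 39.4% higher and 4.62% lower. The median was 0.26 for members and 0.20 for all genes. In NIC CA3 27 were higher and 18 lower (15.4% and 10.3%), beside a background of 21.4% higher and 16.9% lower. Of the 27, 25 were also higher in CA1 (92.6% of the CA3 list and 32.5% of the CA1 list, beside 97.4% and 53.1% over all genes). The 4 lower in CA1 were all lower in CA3 (100% of the CA1 list and 22.2% of the CA3 list, beside 92.7% and 25.3%).

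Zfp512 read 109, 97 and 96.8 in NIC CA1 total RNA and 195, 205 and 208 in polysome RNA (1.87-fold, log2 difference 0.90 ± 0.15, n = 3 and 3, limma adjusted p = 1.58e-05), and 0.69 ± 0.15 higher in CA3. Zfp445, a KRAB protein that maintains genomic imprints, read 58.9, 54 and 60.4 in CA1 total RNA and 117, 124 and 115 in polysome RNA (0.87 ± 0.19), and was 0.82 ± 0.19 higher in CA3. Zfp330 read 52.5, 45 and 57.2 against 108, 99.3 and 116 (0.88 ± 0.13). No array of one fraction reached the other for these 3 genes.

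Zfp462 was higher in polysome RNA by 0.81 ± 0.13 in CA1 and 0.56 ± 0.13 in CA3, and Zfp318 by 0.78 ± 0.12 and 0.53 ± 0.12. Zfp638, a nuclear protein that silences unintegrated retroviral DNA, was higher in CA1 by 0.78 ± 0.21, and its CA3 value was 0.52 ± 0.21 (adjusted p = 0.0506). In CA3 the largest also included Zfp422 (0.56 ± 0.13) and Zfp18 (0.51 ± 0.17), whose call was lost without NIC CA3 polysome replicate 1 or 2 or NIC CA3 total replicate 2.

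Zfp180 had the largest deficit in polysome RNA. It read 205, 172 and 142 in NIC CA1 total RNA and 107, 88.6 and 82.5 in polysome RNA (1.73-fold lower, log2 difference -0.79 ± 0.14, adjusted p = 3.06e-05), and 132, 126 and 130 against 58.9, 69.9 and 50.1 in CA3 (-0.95 ± 0.14). The 3 other members lower in both regions were Zfp580 (-0.55 ± 0.17 in CA1 and -0.80 ± 0.17 in CA3), Zfp575 (-0.45 ± 0.11 and -0.72 ± 0.11) and Zfp358 (-0.42 ± 0.13 and -0.56 ± 0.13). The CA1 call of Zfp580 was lost without NIC CA1 polysome replicate 2 (adjusted p = 0.0547). Zfp580, Zfp575 and Zfp358, with Zfp653 and without Zfp180, are the members that fell in total RNA of both regions after ischemia. NIC total RNA arrays enter both comparisons, so the values are only set side by side. In CA3 Zfp683 (-0.78 ± 0.21), Zfp972 (-0.58 ± 0.17) and Zfp42 (-0.56 ± 0.14) were lower as well.

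**Figure D4:**
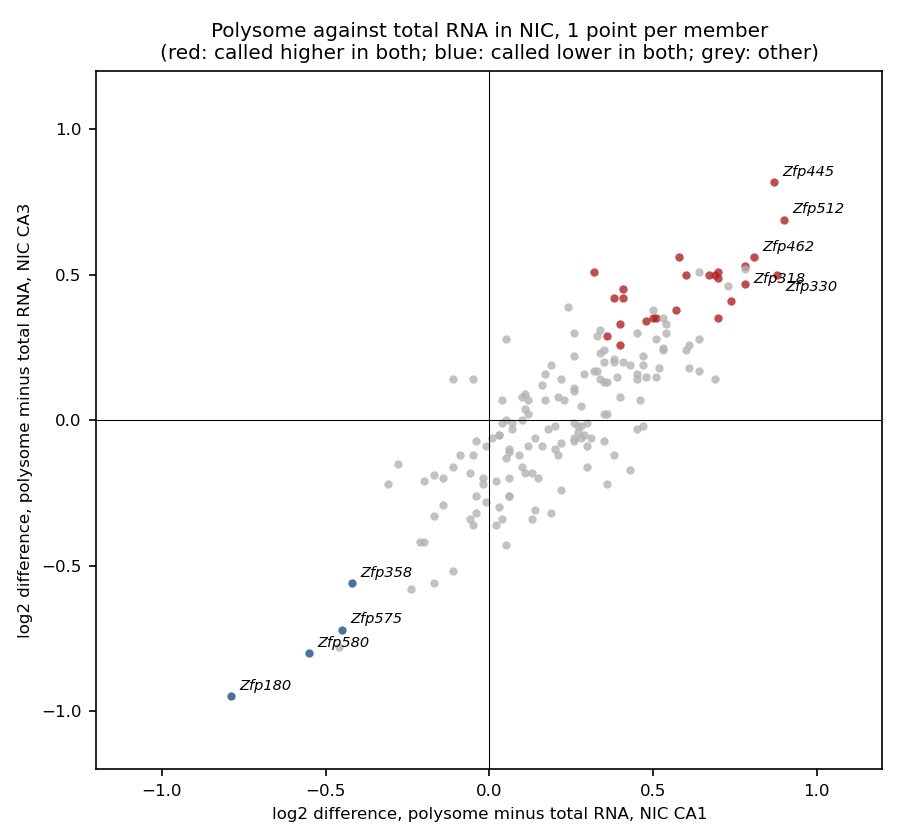
Log2 difference between polysome and total RNA of the 175 members in NIC CA1 (horizontal axis) and NIC CA3 (vertical axis), 1 point per member. Red points are the 25 members called higher in both regions, blue points the 4 called lower in both, and grey points the others. The cloud lies to the right of 0 on the CA1 axis, where the median is 0.26, and near 0 on the CA3 axis, where it is 0.04.

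How the arrays were scaled to each other matters here. With quantile normalization the median over all genes in NIC CA1 went from 0.20 to 0.04, and the split became 37 higher and 16 lower (background 22.4% and 11.8%). In NIC CA3 the split became 43 higher and 12 lower (background 24.6% and 12.4%). With total and polysome RNA paired by pool as a fixed block, NIC CA3 gave 44 higher and 25 lower (background 28.8% and 23.4%). The members retested for these 2 comparisons kept their sign under each setting.

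Between regions, no member differed in NIC total RNA (background 2.40% higher and 1.06% lower in CA1). In limma 10 members (5.71%) had an unadjusted p under 0.05, beside 13% of all genes, and the lowest adjusted p was 0.13, for Zfp84. In NIC polysome RNA 52 members were higher in CA1 and 0 lower (29.7% and 0%), beside a background of 27.6% higher and 0.730% lower. The median over all genes was 0.23, and quantile normalization moved it to 0 and left 1 of the 52, Zfp488. The other 51 are therefore given only as values on the deposited scale.

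Zfp488, an oligodendrocyte transcription factor, read 108, 107 and 88.9 on the CA1 polysome arrays of NIC and 58.7, 67.7 and 53.1 on those of CA3 (1.55-fold, log2 difference 0.63 ± 0.12, n = 3 and 3, limma adjusted p = 0.000312), with no overlap, and 0.37 with quantile normalization (adjusted p = 0.048). Beside it, oligodendrocyte markers (7 of 8 genes measured and tested, all 7 called higher in CA1) summed to 2705 to 3283 in CA1 and 1477 to 1840 in CA3 in the same arrays. Their part in the difference of Zfp488 was not tested. The next were Zfp46 (0.61 ± 0.15), Zfp827, which recruits the NuRD complex to telomeres (0.54 ± 0.12), Zfp180 (0.53 ± 0.14), Zfp292 (0.50 ± 0.13) and Zfp217 (0.50 ± 0.13), which also lost its call without NIC CA3 polysome replicate 3. The 52 were 29 and 34 without NIC CA1 polysome replicate 1 or 2, and 31 and 24 without NIC CA3 polysome replicate 1 or 3.

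**Figure D5:**
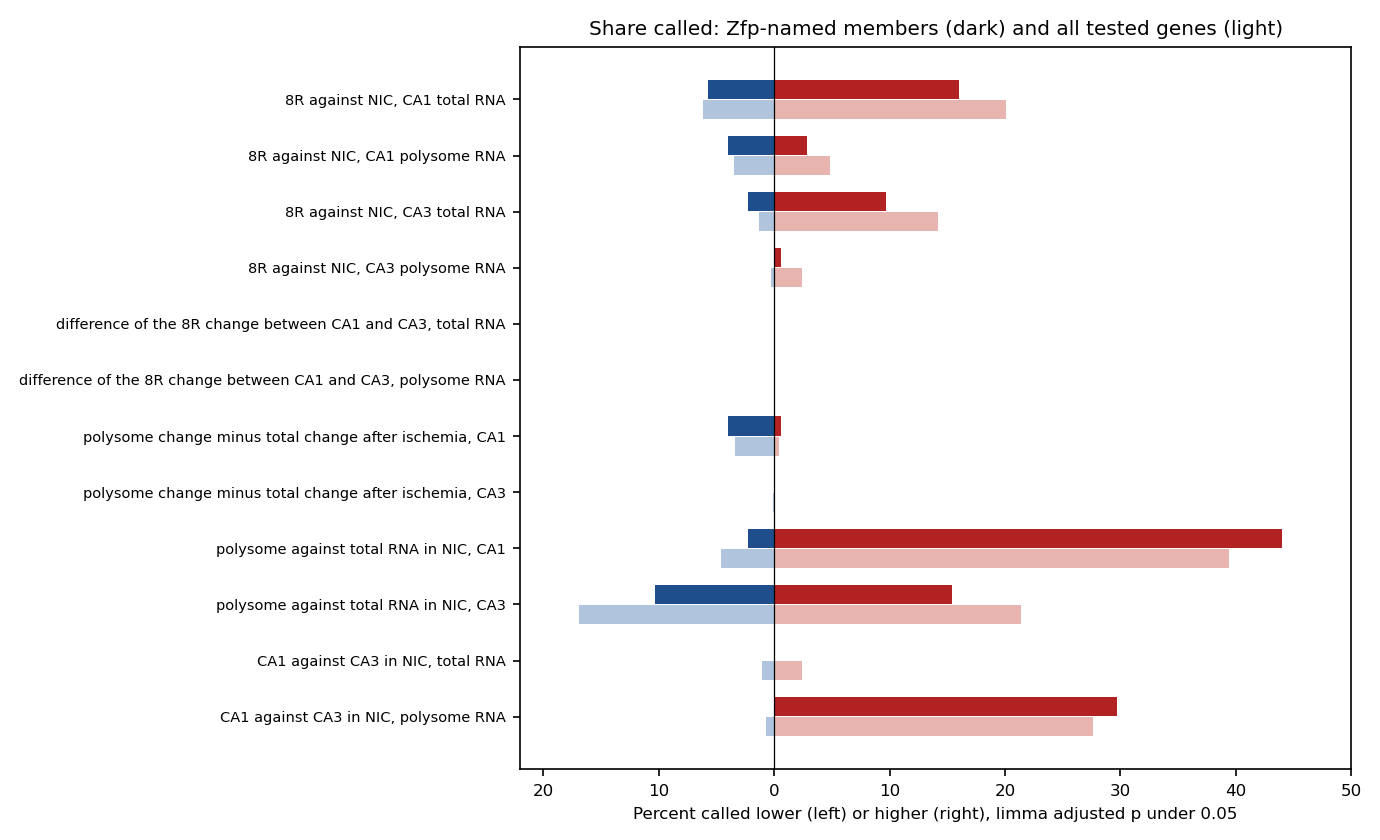
Percent of the 175 members (dark bars) and of all 12739 tested genes (light bars) called lower (left, blue) or higher (right, red) in each of the 12 comparisons at limma adjusted p under 0.05. The share of members called higher was 16% beside 20.1% in CA1 total RNA after ischemia. It was 44% beside 39.4% for polysome against total RNA in NIC CA1. In CA1 polysome RNA after ischemia 2.86% of members were higher and 4% lower, beside 4.86% and 3.45% of all genes.

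The range of a member's group means had a median of 0.52 log2, against 0.58 for all genes, and 7 members (4%) ranged over more than 1 log2, against 12.5% of all genes. The 7 were Zfp180 (1.32), Zfp580 (1.21), Zfp24 (1.16), Zfp143 (1.15), Zfp445 (1.13), Zfp483 (1.08) and Zfp972 (1.08). Members were dimmer than the tested genes as a whole. On every array their median minus that of all tested genes lay between -0.39 and -0.12 log2. The part of intensity in the narrower range, or in the shares called, was not tested. By gene position, the 70 members beside another zinc finger gene held 13 of the CA1 total RNA rises and 2 of the falls, and the 100 not beside one held 15 and 8. All 8 members whose polysome change differed from the total change in CA1 were among the 100. Whether the position matters was not tested. Over the 8 groups, on the deposited scale, the highest group mean was that of NIC CA1 polysome RNA for 69 members (39.4%, beside 32.2% of all genes) and of 8R CA1 polysome RNA for 61 (34.9%, beside 31.6%).

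Members with a known role apart from repression were looked at by short lists, which do not hold every member with that role. The background for these lists was 20.1% of all genes higher and 6.15% lower in CA1 total RNA. It was 4.86% higher in CA1 polysome RNA, 14.2% higher in CA3 total RNA and 39.4% higher in polysome than in total RNA of NIC CA1. Of all genes, 33.6% were called in at least 1 of the 4 comparisons of 8R with NIC. Of a list of 10 that act in chromatin complexes, at GC boxes or at imprints, which leaves out Zfp143, Zfp217, Zfp445 and Zfp827 described above, 2 rose in CA1 total RNA (Zfp410 and Zfp532), 1 in CA1 polysome RNA (Zfp532), 1 in CA3 total RNA (Zfp410) and 0 fell. In NIC CA1 5 of the 10 were higher in polysome RNA, among them Zfp644 (0.74 ± 0.15) and the imprinting factor Zfp57 (0.69 ± 0.14). Of a list of 9 developmental regulators 1 rose in CA1 total RNA, Zfp703 (0.43 ± 0.13), and 0 fell, and its CA1 polysome value was 0.39 ± 0.14 (adjusted p = 0.0737). In NIC CA1 5 of the 9 were higher in polysome RNA, with Zfp462 the largest and Zfp335 at 0.53 ± 0.11.

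Of 3 listed ubiquitin or SUMO ligases, the SUMO ligase Zfp451 rose in CA1 total RNA (0.44 ± 0.12, adjusted p = 0.00507). The ubiquitin ligase Zfp91 gave 0.07 ± 0.09 there, and Zfp598, which marks collided ribosomes, -0.08 ± 0.10. Of 4 tested members on a list of RNA-binding and ribosome quality control genes (Zfp346, Zfp598, Zfp638 and Zfp830), 0 were called in limma in any of the 4 comparisons after ischemia, with Zfp638 at 0.33 ± 0.20, Zfp830 at 0.22 ± 0.13 and the double-stranded RNA-binding Zfp346 at 0.14 ± 0.11 in CA1 total RNA. Of their 16 values 1 had an unadjusted p under 0.05, that of Zfp598 in CA3 polysome RNA (log2 difference 0.27, limma adjusted p = 0.119). The list does not hold the ribosome assembly factor Zfp593, which rose in total RNA of both regions.

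The partners of KRAB repression were read from the same fit. Of 21 tested corepressor genes, 7 rose and 0 fell in CA1 total RNA, among them Chd4, Hdac2 (0.63 ± 0.15) and Mta2 (0.40 ± 0.08), while the scaffold Trim28 gave 0.02 ± 0.10. In CA3 total RNA 4 rose (background 14.2%). In CA1 polysome RNA 3 fell (Mta1, Mta3 and Dnmt1, background 3.45%), and in CA3 polysome RNA 0 were called. In NIC CA1 17 of the 21 were higher in polysome RNA (background 39.4%), Trim28 by 0.59 ± 0.10. In NIC CA3 10 were higher and 1 lower (background 21.4% and 16.9%). In CA1 total RNA, beside the background of 20.1% higher and 6.15% lower, 2 of 35 Zbtb genes rose and 5 fell, 4 of 13 Zscan and Zkscan genes rose and 0 fell, and 2 of 21 Zfp genes with a lettered name rose and 1 fell. In CA3 total RNA 3 Zbtb genes rose and 2 fell, and 2 Zscan and Zkscan genes rose (background 14.2% higher and 1.33% lower). In CA1 polysome RNA 1 lettered Zfp gene rose, and of 3 Znf-named genes 1 fell, Znf846 (background 4.86% and 3.45%). No other gene of these 4 families was called in the 4 comparisons of 8R with NIC. Whether the families differ from the members was not tested.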

How the data were processed

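The authors deposited 1 linear intensity for each probe set of each array. Per the submitters' processing notes the tools were PLIER and Affymetrix Expression Console. How background was corrected and arrays were scaled to each other is not given in the sources used here. From the deposited intensities log2(intensity + 16) was computed. The platform annotation gave 1 symbol to 18511 of 36685 probe sets, several to 575 and none to 17599. The brightest probe set of each of 18166 genes was kept, and 12739 genes at or above the 30th percentile of mean log2 intensity were tested. Of the 213 Zfp-named genes 4 had several probe sets, and 205 matched a RefSeq record (GRCr8) under the same symbol.

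In R 4.3.3, limma 3.58.1 (lmFit, eBayes with trend, two-sided) was fitted once to all 27 arrays with 8 group means. Adjusted p-values are Benjamini-Hochberg over the tested genes of a comparison, and called means an adjusted p under 0.05. The fit was tested on simulated data. Named members are the up to 6 largest called rises and falls of each comparison, with 2 to 4 examples of each role list. Zfp800, Zfp24 in CA3 polysome RNA, the seventh fall in CA1 polysome RNA (Zfp575), Zfp40, Zfp483 and Zfp445 there, the polysome values of Zfp703 and the genes of widest range were added after their values were seen. Members and lists were chosen with earlier results of these data known, and the genes for the printed promoters and the motifs searched after their values were seen. Protein sequences were not used here, so a planned split by KRAB box was not made. Alternatives were the pseudocount (1 or 64), no filter, quantile normalization, the mean of probe sets, a fit of only the compared groups, array weights, pool as a random or fixed replicate block, and leaving out 8R pool 4 or each array. Per the labels, total and polysome RNA with 1 pool number share a pool. Their deviations from group means correlated at 0.28 to 0.77 in 8R (7 pairs) and -0.04 to 0.22 in NIC (6 pairs, 1 of them over 0.1). Total and polysome arrays of different pool numbers correlated at -0.62 to 0.47 in 8R (21 pairs, 5 over 0.1) and -0.15 to 0.10 in NIC (12 pairs). The ranges of the 2 kinds of pair overlap in both conditions. The number of arrays, 3 or 4 a group, limits the precision.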

Additional observations from a re-analysis of the deposited data

Results flagged for a closer look

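In CA1 the change after ischemia differed between polysome and total RNA for 8 members, by limma's test of the difference itself. The polysome change minus the total change was -0.81 for Zfp189, -0.67 for Zfp612, -0.67 for Zfp770, -0.66 for Zfp330, -0.63 for Zfp715, -0.62 for Zfp821, -0.50 for Zfp410 and 0.71 for Zfp358 on the log2 scale. A rule on the gap of 1 array to the others flagged 0 of the 23 sets of values looked at, all of named members in groups of 4 arrays. It did not flag Zfp683 in 8R CA1 total RNA, where the array of pool 4 lay 0.95 log2 above the mean of the others. Groups with fewer arrays were not looked at. The rule therefore does not show that no array stood apart.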

How the results depend on the processing

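Counts below are called members, without the share of all genes called under the same setting. They show how far a count moves, and not whether the members moved apart from all genes. The same holds for counts above that are given under an alternative with no background beside them. Over 69 named values no direction changed under any alternative, 49 kept their call in every alternative other than leaving out 1 array, and 38 in all of them. Array weights gave 25 in 8R against NIC CA1 polysome RNA, 51 in CA3 total RNA, 7 in CA3 polysome RNA, 14 and 26 for the polysome minus total change in CA1 and CA3, 77 for polysome against total RNA in NIC CA3, and 8 and 90 for NIC CA1 against CA3 in total and polysome RNA. Without the 8R arrays of pool 4 the counts were 45 in CA3 total RNA, 2 in CA3 polysome RNA, 11 for the CA3 polysome minus total change, and 1 and 85 for NIC CA1 against CA3 in total and polysome RNA. Fitting only the compared groups gave 2 in CA1 polysome RNA, 0 in CA3 polysome RNA, and 2 and 87 for NIC CA1 against CA3 in total and polysome RNA. Quantile normalization gave 53 for polysome against total RNA in NIC CA1, and 1 and 1 for NIC CA1 against CA3 in total and polysome RNA. A pseudocount of 1 gave 3 in CA3 polysome RNA and one of 64 gave 0.

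With the pool as a random replicate block the counts were 3 in CA3 polysome RNA, 18 and 16 for the polysome minus total change in CA1 and CA3, and 80 for NIC CA1 against CA3 polysome RNA. With the fixed replicate block, total and polysome RNA paired by pool, they were 38 and 30 for the polysome minus total change and 69 for polysome against total RNA in NIC CA3, and the block changed no other count by more than 1.5 times. Leaving out 1 array at a time gave 25 to 40 in CA1 total RNA, 1 to 25 in CA1 polysome RNA, 12 to 30 in CA3 total RNA, 0 to 4 in CA3 polysome RNA, 0 to 12 and 0 to 9 for the polysome minus total change in CA1 and CA3, and 24 to 38 for NIC CA1 against CA3 polysome RNA. The cause of these moves was not tested.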
